A study of Mus musculus with 4 samples.

Results

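The genes described here are the integrin subunits and the laminin chains of the mouse, followed through the cell types of fracture callus. They were taken by symbol from the gene annotation of the count tables, as every gene named Itga or Itgb with its number or letter and every gene named Lama, Lamb or Lamc with a number, leaving out integrin-binding proteins and Itgbl1. This gave 38 of 32285 genes, of which 18 encode integrin alpha subunits, 9 integrin beta subunits and 11 laminin chains. The rule uses no measured value, but it was chosen with earlier results of these data known.

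Integrins are cell surface receptors made of 1 alpha and 1 beta subunit, and the pair decides what is bound. Some pairs bind collagens, others bind fibronectin, vitronectin and osteopontin through the short RGD motif, others bind laminins, and a leukocyte group with the beta subunit Itgb2 binds cell surface ligands such as Icam1. Laminins are cross-shaped trimers of 1 alpha, 1 beta and 1 gamma chain that form the sheet on which a basement membrane is built, around vessels, muscle fibers, peripheral nerves and fat. In a healing fracture, cells move from a provisional matrix rich in fibronectin into cartilage and bone matrix, and vessels with their basement membranes grow in.

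Callus was sampled by single-cell RNA sequencing (scRNA-seq) from the fractured tibia of male wild-type C57BL/6J mice aged 3 months. The 4 groups are control callus at 4 days post-fracture (dpf), control callus at 7 dpf, RA callus at 4 dpf and RA callus at 7 dpf. RA mice carried an arthritis brought on by repeated injections of K/BxN serum that transfers arthritogenic antibodies, and control mice were injected with vehicle on the same plan. Each group is 1 library from 1 pool, given as 4 calluses in the labels and as another number in the study's methods, so no difference between groups could be tested against the spread between animals.

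The cells used numbered 25479 of 34038 deposited barcodes, with 83405494 to 156567619 unique molecular identifiers (UMIs, each standing for 1 captured mRNA molecule) per library and a median of 16093 to 17631 UMIs per cell. Between 28 and 41 of the cell barcodes of a library, 0.456% to 0.681%, also occurred in another one. Levels are given as CPM, the UMIs of a gene per 1000000 UMIs summed over a cell class, with exact 95% Poisson intervals, and ratios with exact conditional intervals. These intervals cover counting error only. A ratio was called when it was past 1.5-fold in CPM + 1 and the gene had at least 50 UMIs over both libraries.

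Of 20 clusters, 18 were named from marker genes and are called X-like here, and the 15 members found among the variable genes were left out of the clustering. The highest and next classes of a gene are given among these 18. The 2 unnamed clusters, of 955 and 142 cells, were left out of that ranking and are given only where stated. Mesenchymal-like cells below are the sum of the 2 progenitor-like classes (committed mesenchymal and osteochondral) with the fibroblast-like and the fibroblast precursor-like class, macrophage-like cells the sum of Arg1 macrophage-like, resident-like and MHC class II macrophage-like cells, and endothelial-like cells the sum of both blood vessel classes. The osteochondral progenitor-like class went against its name at 4 dpf. Its 55 control cells and 59 RA cells held Col2a1, the collagen of cartilage, at 5.74 and 1.00 CPM, against 12453 and 13935 CPM at 7 dpf, and the proliferation gene Mki67 at 241 and 264 CPM against 105 and 135.

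The share of RNA from other cells was read from 2 genes and was higher at 7 than at 4 dpf for both. In macrophage-like cells the mesenchymal gene Col1a1 was found at 0.666% of its mesenchymal-like level in control and 0.451% in RA callus at 4 dpf, and at 1.65% and 1.36% at 7 dpf. In mesenchymal-like cells the macrophage gene C1qa reached 1.02% and 0.894% of its macrophage-like level at 4 dpf, and 1.71% and 1.5% at 7 dpf. Not every marker rose with time. In the same cells the leukocyte gene Ptprc went from 1.82% to 2.18% in control callus and from 1.766% to 1.615% in RA callus. In endothelial-like cells C1qa went from 3.34% to 2.18% in control callus and from 0.894% to 2.26% in RA callus. A member found at such a share is not taken below as expressed in that class, and the part of other cells' RNA was not tested.

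Of the collagen-binding alpha subunits, Itga1, Itga10 and Itga11 were each highest in a different stromal class with the UMIs of all libraries summed. Itga1 (chr13:114953096-115101964, minus strand; all positions are GRCm38 from GENCODE M21) was highest in pericyte- or smooth muscle-like cells, with 335 CPM in control and 293 in RA callus at 4 dpf and 360 and 313 CPM at 7 dpf. Itga11, whose product binds fibrillar collagen in fibroblasts, was highest in tenocyte precursor-like cells at 105, 100, 121 and 126 CPM in the same order, followed by committed mesenchymal progenitor-like cells at 51.4, 59.0, 91.1 and 64.2 CPM. The intervals of these classes did not meet in any of the 4 libraries. Itga10, the collagen receptor of chondrocytes, followed the appearance of cartilage genes: in osteochondral progenitor-like cells it stood at 4.70 CPM (interval 2.15 to 8.92) in control and 4.01 (1.73 to 7.90) in RA callus at 4 dpf, and at 47.5 (43.8 to 51.5) and 54.9 (49.3 to 61.1) CPM at 7 dpf. Tenocyte precursor-like cells held Itga10 at 9.15 to 20.9 CPM over the libraries. Osteochondral progenitor-like cells were above them in 2 of 4 libraries, those of 7 dpf, and below them at 4 dpf. Itga2 had no single home, with 59.4 CPM in Schwann-like cells, 47.2 in T and natural killer-like lymphocytes and 42.8 in capillary and arterial endothelial-like cells over all libraries. Itga1 also stood at 192 CPM in Schwann-like and 128 CPM in capillary and arterial endothelial-like cells. It was at 10 CPM or more in 13 of the 18 classes.

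Alpha subunits of the RGD-binding group were of a broader kind, apart from Itga8 and Itga2b. Itga5, the classical fibronectin receptor subunit, and Itgav, which pairs with several beta subunits, were above 10 CPM in all 18 classes. Itga5 ranged little at the top, with 153 CPM in committed mesenchymal progenitor-like cells and 150 and 146 CPM in the venular and the capillary and arterial endothelial-like classes, and the class in first place changed when CPM was averaged over cells. Itgav was highest in osteoclast lineage-like cells, where osteoclasts use it to attach to bone, with 432 CPM in control and 491 in RA callus at 4 dpf, 522 in control callus at 7 dpf, and 326 CPM in the 32 cells of RA callus at 7 dpf. Arg1 macrophage-like cells followed at 352 to 413 CPM over the libraries. Itga8, known from smooth muscle and mesangium, was highest in pericyte- or smooth muscle-like cells in every library, at 98.6 to 132 CPM. Tenocyte precursor-like cells followed at 25.8 CPM over all libraries, with a wide spread of 13.7 to 81.1 CPM between libraries.

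Itga2b, best known as the alpha subunit of the platelet fibrinogen receptor, was highest in venular endothelial-like cells, at 44.3 CPM in control and 45.0 in RA callus at 4 dpf and 38.9 and 33.6 CPM at 7 dpf. It was also found in fibroblast precursor-like cells at 14.3 to 25.4 CPM and in fibroblast-like cells at 15.8 to 23.2 CPM over the libraries, and at 1.01 CPM in Arg1 macrophage-like cells. In venular endothelial-like cells the platelet genes Gp9 and Gp1bb reached at most 0.215 and 0.113 CPM in any library and Ppbp at most 4.68 CPM, and between 1 and 4 of the 5 listed platelet markers were at 0 in each library. The summed level of that list there was 8.17 to 29.9 CPM, most of it Pf4, which macrophages also express (7.96 to 25.0 CPM). Without integration of the libraries a mast cell-like cluster held the highest level of Itga2b.

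Laminin-binding alpha subunits were highest in classes of vessels, nerve and muscle. Itga3 was confined above 20 CPM to the 3 endothelial-like classes, with 40.7 CPM in venular, 34.9 in capillary and arterial and 24.1 in lymphatic endothelial-like cells. Itga6 was highest in Schwann-like cells (316 CPM) and in capillary and arterial endothelial-like cells (292 CPM), an order that held in 1 of the 2 libraries with at least 50 Schwann-like cells. It was not confined to these, and stood at 10 CPM or more in 14 of the 18 classes. Itga7, the laminin receptor of muscle, was level between pericyte- or smooth muscle-like cells (157 to 161 CPM over the libraries) and muscle lineage-like cells (143 to 196 CPM), and Schwann-like cells followed at 108 CPM. Osteochondral progenitor-like cells and fibroblast precursor-like cells were far below these classes for Itga7, as the heatmap of levels shows.

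**Figure D1:**
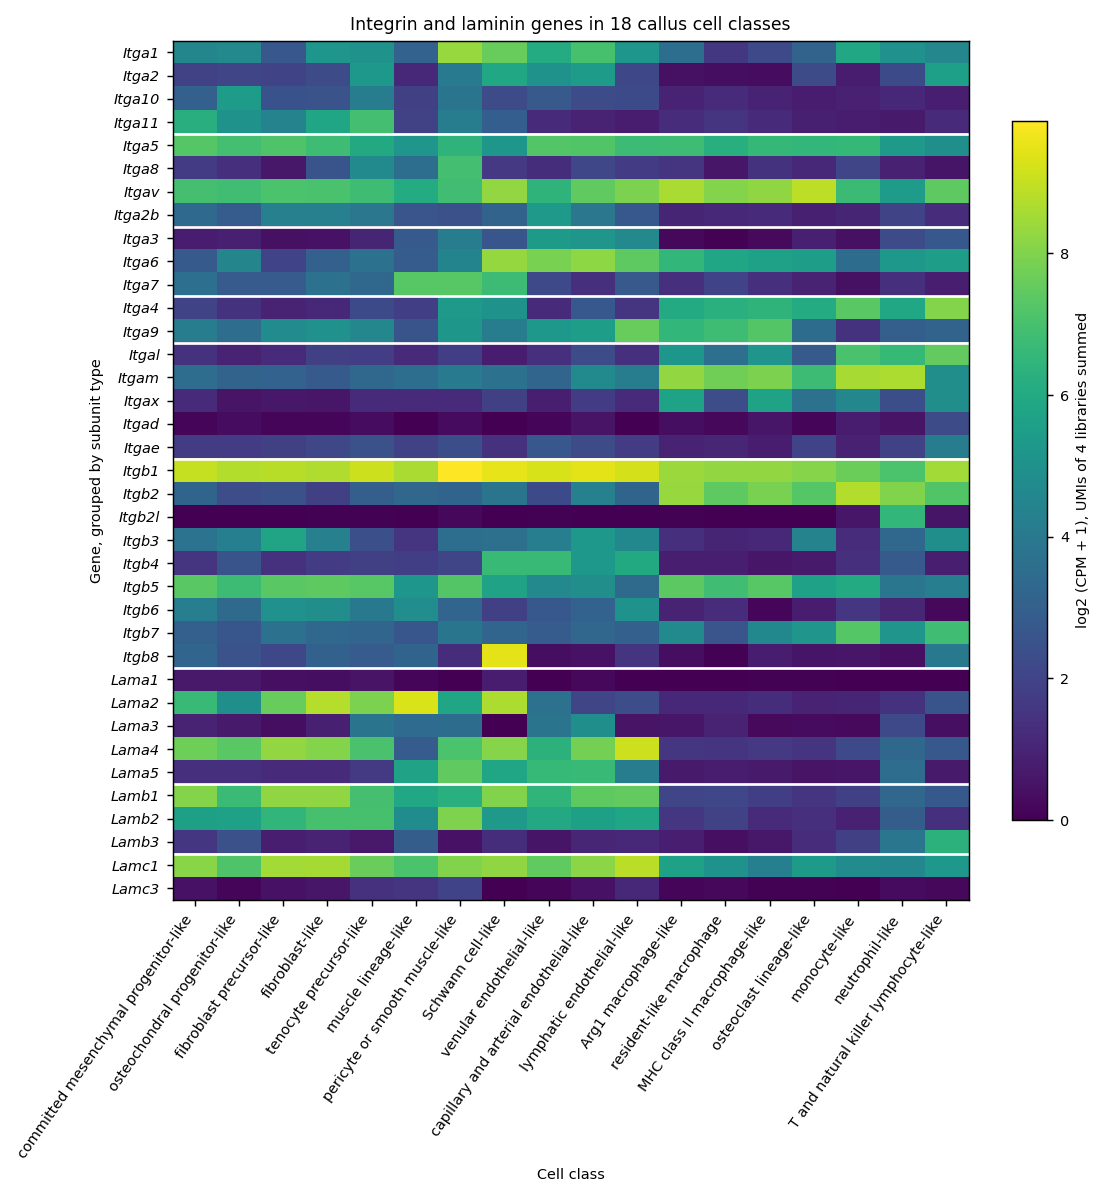
Each cell gives the level of 1 gene (rows, for the members reported by name, grouped by subunit type and divided by white lines) in 1 of 18 cell classes (columns), as log2 of CPM + 1 over the summed UMIs of the 4 libraries. Itgb1 (939 CPM at its highest) is bright in every column, Itgb8 (717 CPM) only in the Schwann-like column and Itgb2l (92.7 CPM) only in the neutrophil-like one, while Lama1 and Lamc3 stay dark throughout.

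Itga4 and Itga9 bind fibronectin, Vcam1 and osteopontin rather than laminin. Itga4, a leukocyte homing receptor subunit, was highest in T and natural killer-like lymphocytes in all 4 libraries (214 to 309 CPM), followed by monocyte-like cells (97.5 to 193 CPM). Itga9, which lymphatic vessels need for their valves, was highest in lymphatic endothelial-like cells at 195 CPM in control and 193 in RA callus at 7 dpf, but MHC class II macrophage-like cells reached 202 CPM in RA callus at 7 dpf, so that the order turned in 1 of 2 libraries, with overlapping intervals.

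The leukocyte subunits differed in level among the white cells. Itgam, the alpha subunit of the complement receptor of phagocytes, stood at 402 CPM in neutrophil-like cells and 387 CPM in monocyte-like cells, with overlapping intervals, and reached 310 CPM in Arg1 macrophage-like cells. Itgal, whose product pairs with Itgb2 on lymphocytes, was steady in T and natural killer-like lymphocytes, with 175 and 186 CPM in control and RA callus at 4 dpf and 180 and 178 CPM at 7 dpf. Monocyte-like cells followed at 132 CPM (102 to 176 over the libraries) and neutrophil-like cells at 96.9 CPM. T and natural killer-like lymphocytes were above monocyte-like cells for Itgal in 3 of 4 libraries. Itgae, which anchors resident lymphocytes and some dendritic cells to E-cadherin, stood at 16.7 CPM in the same lymphocytes and at 31.3 CPM in an unnamed cluster of 955 cells led by Ifitm1, Ccr7, Il1b and MHC class II genes. That cluster also held the highest Itgax, the subunit known from dendritic cells, at 88.7 CPM, against 51.4 in Arg1 macrophage-like and 51.2 in MHC class II macrophage-like cells. Itgad was near 0, with 176 UMIs over all kept cells and 3.93 CPM in T and natural killer-like lymphocytes.

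Itgam and Itgax lie side by side on chromosome 7, and their promoters are shown because both genes were highest in myeloid classes. The sequences run 5′ to 3′ in the direction of the gene from 250 bases before to 50 after the transcription start (RefSeq, GRCm38.p6), and capitals mark GAGGAA, the core bound by the myeloid factor PU.1, or its reverse complement TTCCTC.
Itgam, chr7:128062390-128062689, plus strand: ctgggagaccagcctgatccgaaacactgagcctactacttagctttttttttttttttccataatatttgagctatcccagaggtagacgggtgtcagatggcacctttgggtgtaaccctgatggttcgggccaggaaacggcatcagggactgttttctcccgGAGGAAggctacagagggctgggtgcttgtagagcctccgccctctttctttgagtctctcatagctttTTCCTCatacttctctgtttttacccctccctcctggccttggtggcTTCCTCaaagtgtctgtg
Itgax, chr7:128129300-128129599, plus strand: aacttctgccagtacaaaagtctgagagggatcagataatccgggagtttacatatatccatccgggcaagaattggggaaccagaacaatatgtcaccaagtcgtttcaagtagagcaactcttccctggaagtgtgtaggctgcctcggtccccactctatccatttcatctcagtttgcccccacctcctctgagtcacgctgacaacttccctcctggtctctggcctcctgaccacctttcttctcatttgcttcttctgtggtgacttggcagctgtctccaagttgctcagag
The Itgam window holds the motif 3 times, 1 time forward and 2 times reversed, and the Itgax window does not hold these letters. Of all 32851 promoters of the table, 28.3% hold the motif on either strand, and so do 15 of the 27 promoters of the 24 members that matched the table, 55.6%. A match is a run of letters and was not tied to binding here. Itgal and Itgb2 were not among the matched members.

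Among beta subunits, Itgb1, the common partner of the collagen, fibronectin and laminin receptors, was above 10 CPM in all 18 classes and highest in pericyte- or smooth muscle-like cells (874 to 1080 CPM over the libraries). Itgb5, a partner of Itgav, was nearly as broad and its leading classes, fibroblast-like at 169 CPM and Arg1 macrophage-like at 164 CPM, differed by less than their spread over libraries. Itgb2, the leukocyte beta subunit, was highest in monocyte-like cells in every library (372 to 481 CPM). Without integration, where no cluster was named monocyte-like, Arg1 macrophage-like cells held the highest Itgb2. Its levels over the 18 classes followed those of Itgam (Pearson r = 0.956 on log2 of CPM + 1) and Itgax (r = 0.89) most closely, classes that share their libraries.

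Itgb8, which with Itgav activates latent TGF-β, stood out for its restriction. Schwann-like cells held it at 485 CPM in control and 769 in RA callus at 4 dpf (29 and 20 cells) and at 552 (interval 506 to 602) and 816 (782 to 852) CPM at 7 dpf, and the next class had 14.8 CPM over all libraries. That next class, T and natural killer-like lymphocytes, held Itgb8 at 0 and 0.552 CPM at 4 dpf and at 26.0 and 25.7 CPM at 7 dpf, so its lymphocyte signal was a 7 dpf feature of both control and RA callus. In blood endothelial-like cells, Itgb8 stayed between 0.138 and 0.770 CPM.

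Itgb2l, a close relative of Itgb2, was found in neutrophil-like cells at 84.9 CPM in control and 101 in RA callus at 4 dpf and 81.0 and 67.5 CPM at 7 dpf, and at 0.526 CPM in monocyte-like cells, the next class. Those neutrophil-like cells were led by Camp, Ngp and Elane, genes of granulocytes that are still maturing, and 217 of the 366 came from RA callus at 4 dpf. Itgb7, the gut homing partner of Itga4, was highest in monocyte-like cells (154 CPM) and T and natural killer-like lymphocytes (113 CPM). Without integration these lymphocytes held the highest Itgb7.

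Itgb3, the partner of Itgav in osteoclasts and of Itga2b in platelets, was highest in fibroblast precursor-like cells over all libraries (53.6 CPM), followed by capillary and arterial endothelial-like cells (37.7 CPM). Osteoclast lineage-like cells held it at 18.4 CPM in control and 7.97 in RA callus at 4 dpf and at 50.2 CPM in control callus at 7 dpf, where they and fibroblast precursor-like cells (45.9 CPM) had overlapping intervals. Itgb4, which pairs with Itga6 in firm attachments to laminin, was shared by Schwann-like cells (102 CPM) and venular endothelial-like cells (102 CPM). Itgb6, known chiefly from epithelia, was measured in lymphatic endothelial-like cells (32.9 CPM), fibroblast precursor-like cells (30.9 CPM), fibroblast-like cells (28.2 CPM) and muscle lineage-like cells (27.7 CPM), but at 0.112 CPM in MHC class II macrophage-like cells. The epithelial keratin genes Krt5 and Krt14 were at 0 or at most 0.0537 CPM in mesenchymal-like cells of every library.

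The laminin alpha chains differed from each other in their leading class. Lama2, the alpha chain of the muscle and nerve basement membrane, was highest in muscle lineage-like cells (445 to 848 CPM over the libraries) in all but control callus at 4 dpf, where fibroblast-like cells were higher (305 to 490 CPM over the libraries), followed by Schwann-like cells (401 CPM). Lama4, of vessel walls, was highest in lymphatic endothelial-like cells at 569 CPM in control and 592 in RA callus at 7 dpf, and fibroblast precursor-like cells followed at 217 to 349 CPM. Lama5, the other vascular alpha chain, was highest in pericyte- or smooth muscle-like cells in all 4 libraries (144 to 214 CPM), then in capillary and arterial endothelial-like cells (99.5 CPM) and venular endothelial-like cells (98.3 CPM), and its median over the 18 classes was 1.51 CPM. Lama3, an epithelial chain, was low, with 29.1 CPM in capillary and arterial endothelial-like cells. Lama1, the early embryonic chain, had 118 UMIs and Lamc3 had 227 UMIs over all kept cells, with at most 0.713 and 3.00 CPM in any class over all libraries.

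Lamb1 and Lamc1, the common beta and gamma chains, rose and fell together over the classes (r = 0.954 over 18 classes), with Lama4 close to both (r = 0.951 with Lamb1 and 0.926 with Lamc1). Lamb1 was highest in fibroblast precursor-like (299 CPM) and fibroblast-like cells (299 CPM), which could not be told apart. Lamc1 was highest in lymphatic endothelial-like cells (457 CPM). In macrophage-like cells Lama2, Lama4 and Lamb1 were found at 0.300% to 1.86% of their mesenchymal-like level, about the share of Col1a1. On that measure Lamc1 stood at 12.8% and 15.8% in control and RA callus at 4 dpf and at 14.0% and 8.5% at 7 dpf. These values are above the share of Col1a1, and the part of other cells' RNA was not tested. Lamb2 was highest in pericyte- or smooth muscle-like cells (226 to 309 CPM).

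Lamb3, a beta chain that pairs with Lama3 in epithelial basement membranes, was highest in T and natural killer-like lymphocytes. They held it at 84.9 CPM (interval 67.4 to 106) in control and 71.1 (59.4 to 84.5) in RA callus at 4 dpf and at 69.0 (55.1 to 85.3) and 89.0 (77.4 to 102) CPM at 7 dpf. Neutrophil-like cells followed at 13.7 CPM, and fibroblast-like cells had 0.978 CPM. Lama3 did not follow it over the 18 classes (r = -0.139), and Krt5 and Krt14 were at 0 in these lymphocytes in every library.

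The study compared RA with control callus to learn how systemic inflammation changes the cells of a fracture. In mesenchymal-like cells at 7 dpf, 5 of the 36 members with enough UMIs were called higher in RA callus and 1 lower, against 4.73% of all 17116 genes called higher and 5.22% called lower. The highest ratios were those of 2 laminin chains, Lama2 and Lamb2. The median log2 ratio of the members was 0.10, and that of all genes -0.04.

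Lama2 (chr10:26980036-27619758, minus strand) stood at 206 CPM in control and 205 in RA callus at 4 dpf, and at 125 and 270 CPM at 7 dpf. The libraries were alike at 4 dpf, and by 7 dpf control callus was the lowest and RA callus the highest of the 4. The ratio at 7 dpf was 2.15 (interval 2.10 to 2.21). It was higher in RA callus within each of the 4 classes summed: 160 against 65.2 CPM in committed mesenchymal progenitor-like, 488 against 305 in fibroblast-like, 231 against 144 in fibroblast precursor-like and 37.7 against 20.9 in osteochondral progenitor-like cells. Fibroblast-like cells were 748 of 2989 control and 1271 of 3679 RA cells of this sum, and osteochondral progenitor-like cells 436 and 210. The part of this mixture in the summed ratios of Lama2 and Lamb2 was not tested. Outside the sum, Lama2 was also called higher at 7 dpf in Schwann-like cells, at 518 against 274 CPM, beside 9.28% of 8075 genes called higher there. Of 18 members there, 8 were called higher and 2 lower, with 7.89% of genes called lower. The fibroblast markers in those cells had a summed level of 554 CPM in RA and 344 in control callus. The committed mesenchymal progenitor markers had one of 2083 and 1987 CPM. Arg1 macrophage markers went the other way, at 316.7 and 1356 CPM, as did MHC class II macrophage markers, at 451.5 and 1689 CPM. The part of these lists in the result was not tested. Lama2 stood at 848 against 626 CPM in muscle lineage-like and 243 against 170 CPM in tenocyte precursor-like cells, both under the 1.5-fold limit. In pericyte- or smooth muscle-like cells it was 63.5 against 66.1 CPM.

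Lamb2 (chr9:108479736-108490530, plus strand), the beta chain of synaptic and mature vascular laminins, stood at 111 CPM in control and 85.2 in RA callus at 4 dpf, and at 49.8 and 95.1 CPM at 7 dpf. Control callus at 7 dpf was the lowest library, and the 3 others lay close together. The ratio at 7 dpf was 1.91 (interval 1.84 to 1.99). Lamb2 was called higher in fibroblast-like cells, 133 against 64.4 CPM, and in fibroblast precursor-like cells, 101 against 56.7 CPM, and stood at 59.0 against 40.3 CPM in committed mesenchymal progenitor-like cells and at 63.8 against 45.5 CPM in osteochondral progenitor-like cells, under the limit. The same direction held in blood endothelial-like cells, given below. In pericyte- or smooth muscle-like cells, where Lamb2 was highest, the 4 libraries lay within 1.5-fold of each other (226 to 309 CPM).

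The promoters of this pair are shown because both genes went the same way in RA callus at 7 dpf (RefSeq, GRCm38.p6, in the direction of the gene, with GAGGAA or TTCCTC in capitals as above).
Lama2, chr10:27616893-27617192, minus strand: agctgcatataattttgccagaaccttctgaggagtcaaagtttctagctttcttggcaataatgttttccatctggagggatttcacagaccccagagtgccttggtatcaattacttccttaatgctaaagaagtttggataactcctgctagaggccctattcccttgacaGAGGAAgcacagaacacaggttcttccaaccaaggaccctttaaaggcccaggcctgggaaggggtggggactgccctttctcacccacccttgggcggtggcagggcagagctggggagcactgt
Lamb2, chr9:108479612-108479911, plus strand: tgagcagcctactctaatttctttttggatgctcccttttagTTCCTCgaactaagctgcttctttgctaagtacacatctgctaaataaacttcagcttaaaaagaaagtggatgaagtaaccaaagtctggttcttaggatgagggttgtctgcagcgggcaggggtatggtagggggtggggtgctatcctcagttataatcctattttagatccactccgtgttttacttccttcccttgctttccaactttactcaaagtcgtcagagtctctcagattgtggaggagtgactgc
Each window holds the motif 1 time, forward in Lama2 and reversed in Lamb2. At least 1 motif on either strand is held by 28.3% of all promoters of this length and by 55.6% of the member promoters. Among the other members called higher in these cells, the window of Itga2b holds it and those of Itga2 and Itga9 do not.

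**Figure D2:**
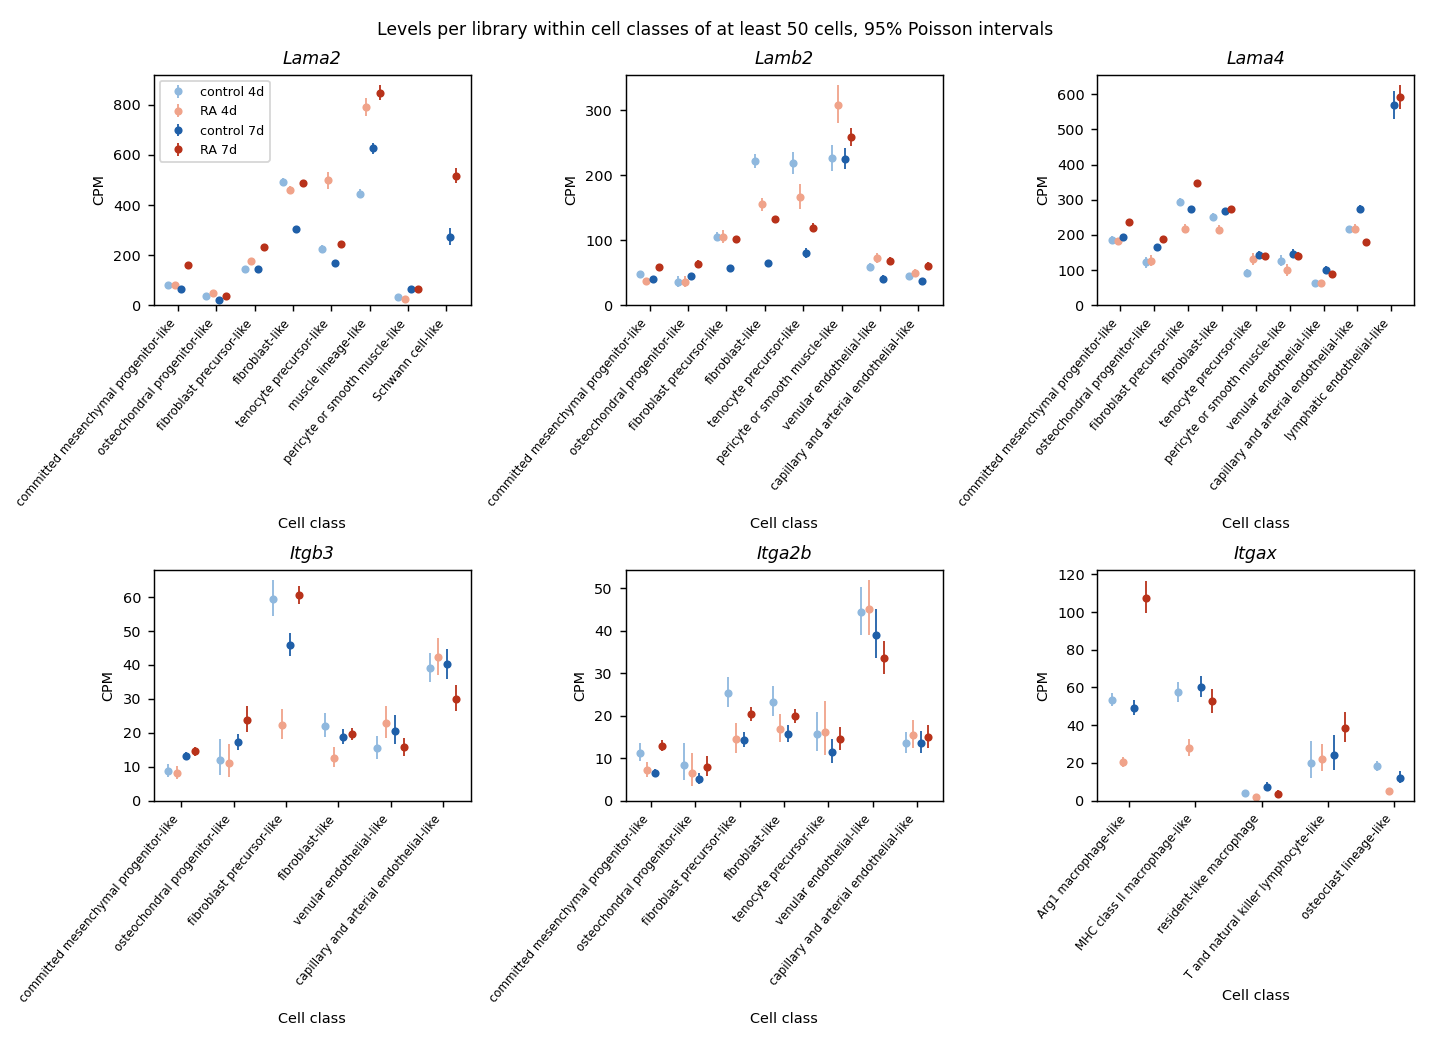
Each panel plots the level of 1 gene in CPM (vertical axis, from 0) in cell classes with at least 50 cells in a library (horizontal axis), with 1 point per library colored by condition and day and bars for exact 95% Poisson intervals. Lama2 and Lamb2 are higher in RA (dark red) than in control (dark blue) callus at 7 dpf in all 4 mesenchymal-like classes, Itgb3 is lowest in RA callus at 4 dpf in fibroblast precursor-like cells (22.3 CPM), and Itgax in Arg1 macrophage-like cells runs from 20.2 CPM in RA callus at 4 dpf to 108 CPM in RA callus at 7 dpf.

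The other chains of these trimers moved less in mesenchymal-like cells at 7 dpf. Lama4 was at 282 CPM in RA and 222 in control callus, Lamc1 at 373 and 264 CPM and Lamb1 at 283 and 286 CPM. None of these was called, and of the 3 ratios that of Lamb1 had a counting interval (0.972 to 1.01) that held 1.

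Of the integrins, Itga2b was called lower in RA callus at 4 dpf and higher at 7 dpf in mesenchymal-like cells. It stood at 18.5 CPM in control and 11.4 in RA callus at 4 dpf, with a ratio of 0.617 (interval 0.529 to 0.719), and at 9.88 and 17.1 CPM at 7 dpf, with a ratio of 1.73 (1.59 to 1.89). The call at 4 dpf ended with the looser cell filter (log2 ratio -0.35), and both calls ended with cell classes weighted equally (-0.53 and 0.56) and with a pseudocount of 10 CPM (-0.41 and 0.45). Platelet markers had a summed level of 50.8 and 36.0 CPM at 4 dpf and 39.4 and 21.7 CPM at 7 dpf, lower in RA callus at both times and almost all Pf4, with Gp9 at no more than 0.111 CPM in any library. Their part in the result was not tested. Itga9 was at 25.4 and 34.1 CPM at 4 dpf and at 16.0 and 24.6 CPM at 7 dpf, where its log2 ratio of 0.59 just passed the limit. That call held with TMM scaling and with the lower UMI minimum and ended under the 6 other alternatives (0.41 to 0.58). Itga2 was called at 2.15 against 4.12 CPM and Lamb3 at 2.44 against 1.09 CPM, control before RA, both low levels, and both calls ended with a pseudocount of 10 CPM. That of Lamb3 also ended with classes weighted equally (-0.29).

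At 4 dpf, 2 of 31 members were called higher and 3 lower in mesenchymal-like cells of RA callus, against 4.06% of 13956 genes called higher and 2.89% called lower. With the looser cell filter 6 were called higher and 1 lower, and 3 of these were among the 5. Itgb3 was the furthest from 1, at 27.8 CPM in control and 12.7 in RA callus, a ratio of 0.456 (interval 0.396 to 0.524). At 7 dpf it was 22.0 and 32.3 CPM, so RA callus at 4 dpf was the low library. With classes weighted equally the log2 ratio at 4 dpf was -0.58, just under the limit, in place of -1.07. Most of this came from fibroblast precursor-like cells, with 59.6 against 22.3 CPM at 4 dpf and 45.9 against 60.7 CPM at 7 dpf, while committed mesenchymal progenitor-like cells had 8.62 against 8.17 CPM at 4 dpf. Fibroblast precursor-like cells were 253 of 855 control cells and 151 of 713 RA cells of this sum.

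Itga1 was called higher at 4 dpf, at 28.6 CPM in RA against 16.3 in control callus with a ratio of 1.75 (interval 1.55 to 1.99), and stood at 23.4 against 18.02 CPM at 7 dpf. Committed mesenchymal progenitor-like cells showed it at 29.9 against 14.0 CPM at 4 dpf. Itga8 was called at 3.16 against 1.55 CPM and Itga6 at 5.78 against 9.72 CPM, RA before control. Both are far under the level of their leading classes, and both calls ended without integration (0.58 and -0.32) and with classes weighted equally (0.21 and -0.34), that of Itga6 also with the looser cell filter (-0.13).

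In blood endothelial-like cells at 7 dpf, 2 of 30 members were called higher in RA callus and 4 lower, against 4.1% of 13035 genes called higher and 4.3% called lower. Those lower included the vascular laminin chains Lama4 and Lamb1 and the integrin Itgav, and those higher were Lamb2 and Itgb4. Lama4 stood at 158 CPM in control and 153 in RA callus at 4 dpf, and at 212 and 132 CPM at 7 dpf, a ratio of 0.622 (interval 0.588 to 0.658). Lamb1 stood at 131 and 112 CPM and then at 180 and 118 CPM. In both chains control callus at 7 dpf was the high library.

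Lamb2 went the other way in these cells, at 50.3 and 58.8 CPM at 4 dpf and 38.02 and 64.8 CPM at 7 dpf, control before RA, with a ratio of 1.70 (interval 1.53 to 1.90) at 7 dpf. Lama5 was at 91.2 and 96.1 CPM and then at 95.4 and 110 CPM, without a call. Itgav was lower in RA callus at 7 dpf, at 99.8 against 178 CPM with a ratio of 0.560 (interval 0.526 to 0.597), after 141 against 139 CPM at 4 dpf. Itgb4 was at 77.4 against 48.0 CPM, RA before control.

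The mixture of vessel types differed between these libraries. At 7 dpf venular endothelial-like cells were 344 of the 830 control cells and 640 of the 1108 RA cells, and for several of these genes the classes differ in level. Within capillary and arterial endothelial-like cells Lama4 was at 179 against 274 CPM and Lamb2 at 61.0 against 36.8 CPM, RA before control, both called. Within venular endothelial-like cells Lama4 was at 89.1 against 101 CPM, under the limit, as was Lamb1 in capillary and arterial endothelial-like cells at 156 against 205 CPM. Venular endothelial-like cells had Lamb1 at 83.5 against 135 CPM and Lamb2 at 68.3 against 40.2 CPM, both called. Itgav and Itgb4 in capillary and arterial endothelial-like cells were at 151 against 200 CPM and 47.1 against 31.2 CPM, the first under the limit and the second just under it. Within venular endothelial-like cells Itgav was at 53.5 against 138 CPM, a call, and Itgb4 at 105 against 78.3 CPM, so Itgb4 was called in the sum and in neither of its classes. With both classes weighted equally the calls of Lama4 (log2 ratio -0.39), Lamb1 (-0.54) and Itgb4 (0.50) ended, and those of Lamb2 and Itgav held under all 7 alternatives. At 4 dpf 1 of 29 members was called, Itga4, at 1.58 against 4.42 CPM, beside 2.34% of 12396 genes called lower and 2.03% called higher. With doublets left out Itga4 had under 50 UMIs and was not among the 3 members then called, 2 higher and 1 lower. That level is 2.37% and 6.23% of its level in macrophage-like cells. On the same measure C1qa stood at 0.894% and 3.34%, Lyz2 at 2.71% and 3.22% and Cd68 at 3.92% and 3.58%, RA before control. The part of other cells' RNA was not tested.

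**Figure D3:**
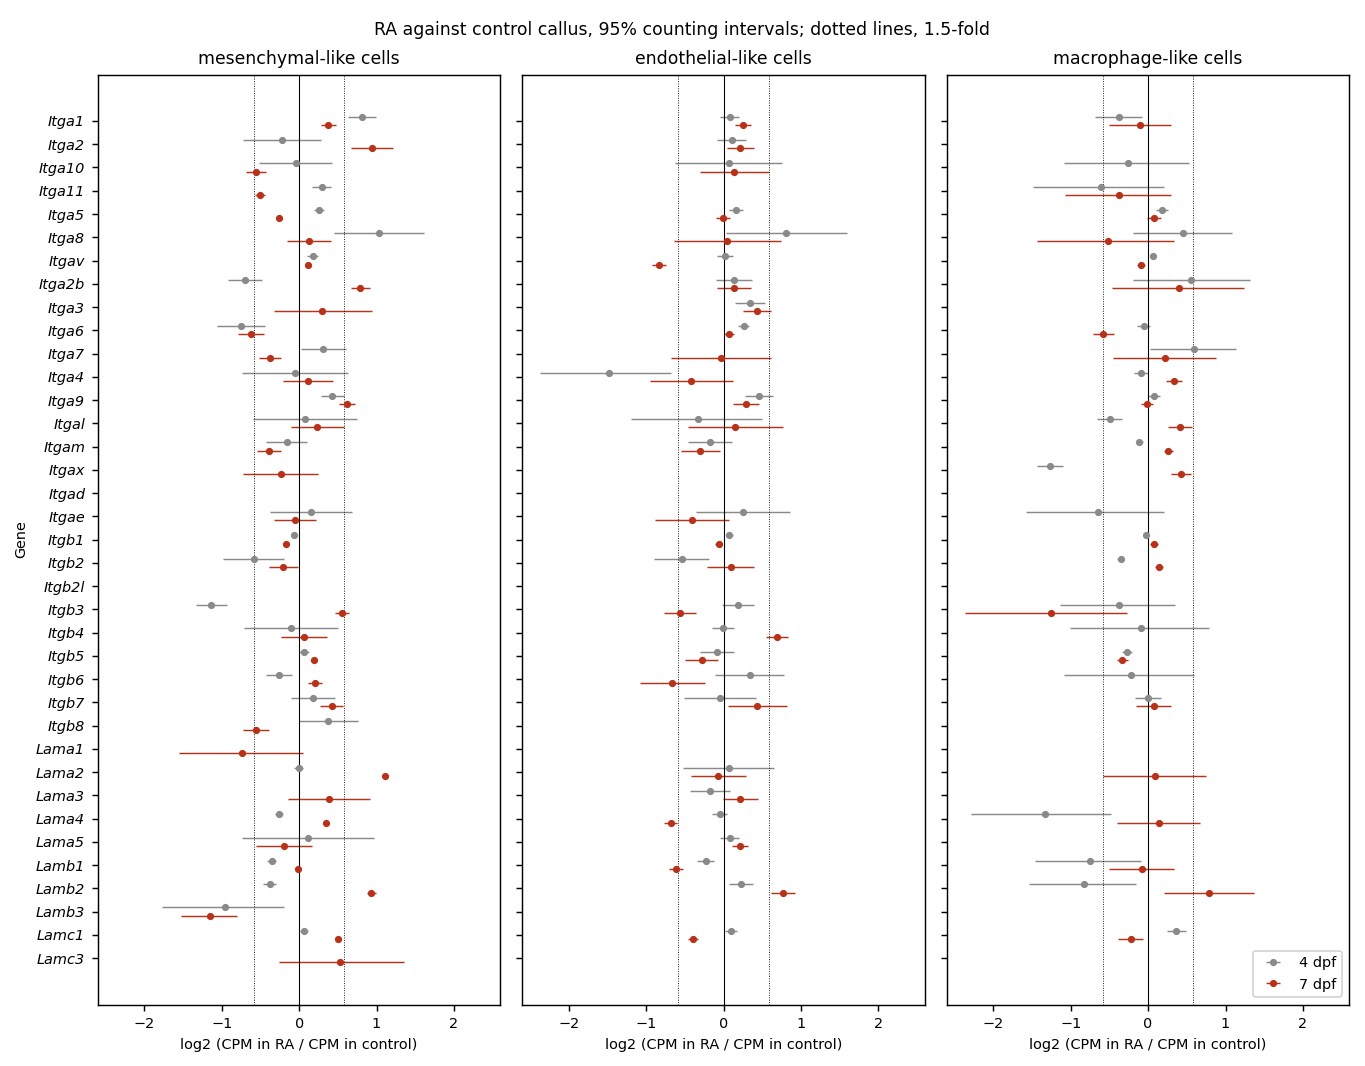
Each panel gives log2 of the ratio of CPM in RA over control callus (horizontal axis, no pseudocount) for the members reported by name with at least 50 UMIs (rows) in 1 lineage, gray for 4 dpf and red for 7 dpf, with exact 95% counting intervals; dotted lines mark 1.5-fold and calls used CPM + 1. In mesenchymal-like cells Lama2 and Lamb2 lie right of the limit at 7 dpf and Itgb3 left of it at 4 dpf, and in endothelial-like cells Lama4 and Itgav lie left of it at 7 dpf.

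In macrophage-like cells few members were called. At 4 dpf none of 26 was called higher and 2 were called lower, against 1.33% of 12500 genes called higher and 2.85% called lower, and at 7 dpf 1 of 23 was called lower and none higher, against 1.65% and 3.27% of 12032 genes. Itgax was the clear one at 4 dpf, at 40.1 CPM in control and 16.7 in RA callus, a ratio of 0.416 (interval 0.371 to 0.466), and stood at 43.1 and 57.8 CPM at 7 dpf. It was lower at 4 dpf in each macrophage-like class: 20.2 against 53.5 CPM in Arg1 macrophage-like, 28.0 against 57.4 in MHC class II macrophage-like and 1.92 against 4.09 in resident-like cells, RA before control. The markers of dendritic cells had a summed level of 13.02 CPM in RA and 13.6 in control callus at 4 dpf, with none of the 6 at 0. Those of Arg1 macrophages, of which Spp1 is 1, had a summed level of 4958 CPM in RA and 10320 in control callus, and of 2678 and 3098 CPM without Spp1. The part of either list in the result was not tested. The other calls, Lama4 at 4 dpf (0.614 against 1.55 CPM) and Itgb3 at 7 dpf (0.707 against 1.69 CPM), rest on 14 and 11 UMIs in RA callus. Lama4 stood at 0.669% of its mesenchymal-like level in control and 0.318% in RA callus, beside 0.666% and 0.451% for Col1a1. The part of other cells' RNA in the call of Lama4 was not tested.

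In Arg1 macrophage-like cells 3 leukocyte subunits had opposite directions at the 2 time points. Itgax there was 53.5 CPM in control and 20.2 in RA callus at 4 dpf, and 49.1 and 108 CPM at 7 dpf. Itgal went the same way, with 32.9 and 21.3 CPM and then 35.6 and 71.1 CPM, and Itgb2 with 332 and 244 CPM and then 314 and 462 CPM, the latter within 1.5-fold at both times. For all 3 genes RA callus held the lowest library at 4 dpf and the highest at 7 dpf. Over all members in this class, 3 of 16 were called lower and none higher at 4 dpf, beside 3.47% and 1.96% of 11009 genes. At 7 dpf 2 of 15 were called higher and none lower, beside 2.97% and 2.7% of 10277 genes. The 479 cells of RA callus at 7 dpf had the Arg1 macrophage markers at a summed 4574 CPM, against 7346 in control callus at 7 dpf and 7246 and 16700 CPM in RA and control callus at 4 dpf. Without Spp1 these sums were 1445, 3766, 3243 and 3744 CPM. The part of this difference in marker level was not tested.

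Genes that work with the members were counted in the same way. In mesenchymal-like cells at 7 dpf, 7 of 11 other basement membrane genes were called higher in RA callus and none lower, with a median log2 ratio of 1.24, against 4.73% of all genes called higher and 5.22% lower. The type IV collagen genes Col4a4, Col4a5 and Col4a1 gave the largest ratios, and Col4a1, a chain of the common vascular network, was at 271 CPM in control and 342 in RA callus at 4 dpf and at 109 and 282 CPM at 7 dpf. Col4a4 was at 2.30 and 8.15 CPM and Col4a5 at 4.66 and 14.2 CPM at 7 dpf. As for Lama2 and Lamb2, control callus at 7 dpf was the low library of the sum for Col4a1. From 4 to 7 dpf in control callus, 2 of 10 genes of this list were called higher and 4 lower (median log2 ratio 0.001). The shares of all genes were 6.43% and 4.44%. In RA callus 7 of 11 were called higher and none lower (median 0.86), beside 5.67% and 4.44% of all genes. In committed mesenchymal progenitor-like cells Col4a1 was called higher in RA callus at both times, at 132 against 74.1 CPM and 138 against 79.0 CPM. Col4a4 (2.85 against 1.52 CPM) and Col4a5 (5.88 against 2.68 CPM) were called higher there at 7 dpf, beside 5.54% of genes. Fibroblast-like and fibroblast precursor-like cells were 748 and 633 of 2989 control cells and 1271 and 1192 of 3679 RA cells at 7 dpf. The part of this mixture was not tested.

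Of 16 other integrin ligands, 3 were called higher and 3 lower in the same cells, against the same 4.73% and 5.22% of all genes. Tenascin C (Tnc) and osteopontin (Spp1), ligands of Itga9 and Itgav in provisional matrix and bone, were lower in RA callus at 7 dpf, at 215 against 543 CPM and 289 against 708 CPM, and thrombospondin (Thbs1) at 137 against 254 CPM. At 4 dpf Tnc was at 295 in RA and 297 CPM in control callus, and Spp1 at 466 and 299 CPM. By class at 7 dpf, Tnc was called lower in fibroblast precursor-like (41.2 against 407 CPM), fibroblast-like (79.4 against 288 CPM) and committed mesenchymal progenitor-like cells (488 against 772 CPM), and stood at 431 against 476 CPM in osteochondral progenitor-like cells. Spp1 was called lower in fibroblast precursor-like (21.7 against 124 CPM) and fibroblast-like cells (32.3 against 111 CPM). Osteochondral progenitor-like cells, with the highest Spp1 of the 4 classes and no call, were 436 of the 2989 control cells and 210 of the 3679 RA cells of this sum. The 3 Arg1 macrophage markers other than Spp1 had a summed level of 139 CPM in RA and 186 in control mesenchymal-like cells. The part of the mixture and of macrophage RNA in the sums was not tested.

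Of 19 adaptors and kinases that couple integrins to actin, 2 were called in each direction in mesenchymal-like cells at 7 dpf, beside that same background, led by Parvb (2.23 against 5.02 CPM), Tln2 (112 against 192 CPM) and Kank1 (13.2 against 7.55 CPM). None of the 6 other laminin receptors was called, and Dag1, the dystroglycan that binds Lama2, was at 122 against 85.2 CPM.

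**Figure D4:**
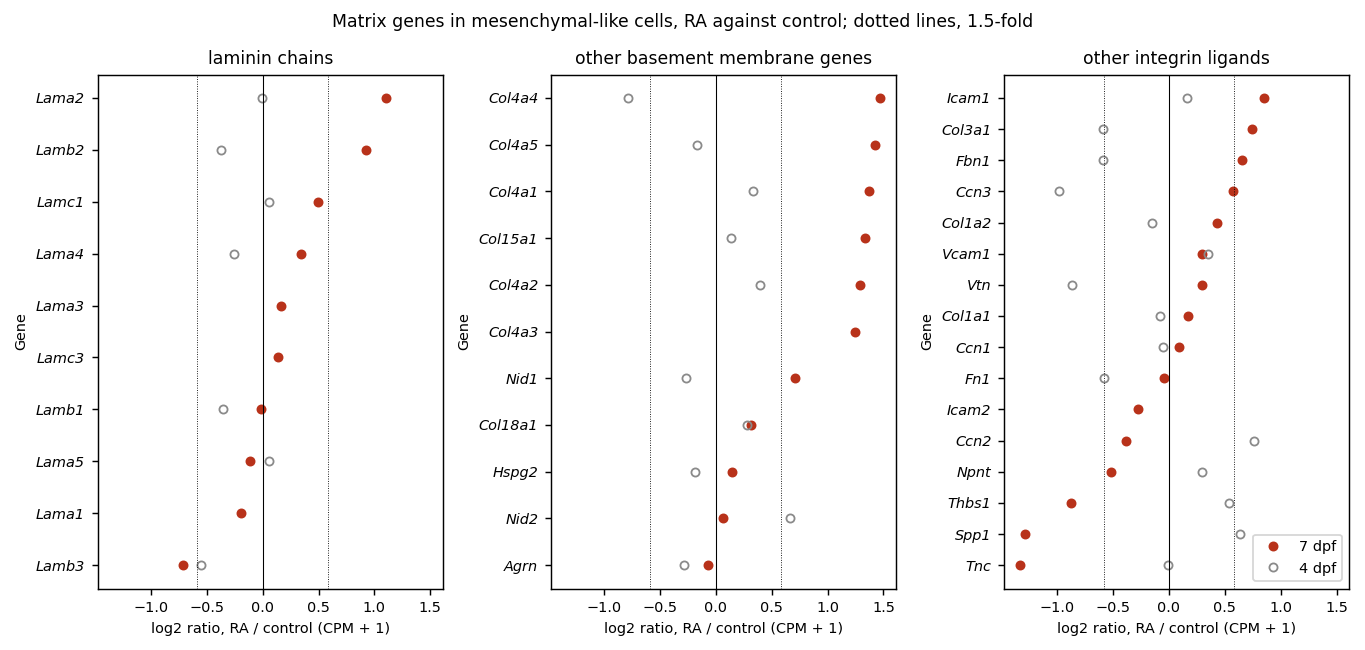
The log2 ratio of RA over control callus (horizontal axis, CPM + 1) in mesenchymal-like cells is plotted for laminin chains reported by name, other basement membrane genes and other integrin ligands (rows) with at least 50 UMIs, filled red for 7 dpf and open gray for 4 dpf. At 7 dpf, 7 of 11 other basement membrane genes lie past the upper 1.5-fold line, and Tnc, Spp1 and Thbs1 past the lower one.

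In endothelial-like cells at 7 dpf, by contrast in count, 1 of 9 other basement membrane genes was called lower in RA callus (Nid2, 64.0 against 111 CPM) and none higher, against 4.3% of all genes called lower and 4.1% higher, and Col18a1 and Col4a1 followed at 516 against 713 CPM and 1885 against 2322 CPM. Bcam, a laminin receptor of the immunoglobulin type that binds Lama5, was called higher at 77.5 against 45.8 CPM. Of 14 other integrin ligands, 7 were called lower and 1 higher in macrophage-like cells of RA callus at 4 dpf. The shares of all genes were 2.85% and 1.33%. Fn1 and Spp1, ligands of Itga5 and Itgav, stood there at 289 against 972 CPM and 2280 against 7226 CPM, RA before control. Spp1 is also 1 of the Arg1 macrophage markers that name a class of this sum. Whether the lineages differ was not tested.

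Between 4 and 7 dpf, 2 of 33 members were called higher and 4 lower in mesenchymal-like cells of control callus, beside 6.43% and 4.44% of 15856 genes, and 3 of 36 higher and 2 lower in those of RA callus, beside 5.67% and 4.44% of 16141 genes. These comparisons share their libraries with those above. Itga10 was called higher in both, from 3.25 to 13.7 CPM in control and from 3.16 to 9.30 CPM in RA callus. Lama2, Lamb2, Itga9 and Itga2b were the calls that fell in control callus, Lamb2 from 111 to 49.8 CPM, and Itgb8 rose from 4.25 to 8.23 CPM. In RA callus Itgb3 rose from 12.7 to 32.3 CPM and Lamb1 from 174 to 283 CPM, and Itga5 fell from 192 to 114 CPM. Lama1 was called lower on 54 UMIs.

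In endothelial-like cells 4 of 30 members were called higher with time in control callus, beside 3.5% of 12759 genes, and 3 of 30 in RA callus, beside 4.3% of 12730 genes. None was called lower, beside 1.93% and 2.74% of those genes. Lama2 and Itga10 were among them in both, at 4.14 to 9.39 and 3.11 to 5.69 CPM in control and at 4.35 to 8.94 and 3.26 to 6.26 CPM in RA callus. Itga7 was also among them in control callus and Itga4 in RA callus. Mesenchymal RNA rose beside them, with Col1a1 going from 59.9 to 220 CPM in control and from 38.2 to 188 CPM in RA endothelial-like cells. Over the libraries Col1a1 stood there at 0.321% to 1.59% of its mesenchymal-like level, Lama2 at 2.0% to 7.5% and Itga10 at 41.7% to 103%. The part of mesenchymal RNA in the result was not tested.

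In macrophage-like cells 5 of 26 members were called higher and none lower with time in control callus, beside 2.94% and 1.54% of 12702 genes, and 5 of 20 higher and 1 lower in RA callus, beside 7.4% and 3.14% of 11789 genes. Of these, Lama2, Lama4, Lamb1 and Itga11 in control callus and Lama4, Lamb1 and Lamb2 in RA callus stayed at or under 5.30 CPM. Col1a1 went from 84.0 to 228 CPM in control and from 53.6 to 213 CPM in RA callus. Lamb2 was at 1.94 and 2.01 CPM in these cells of control callus, and its mesenchymal-like level went from 111 to 49.8 CPM. Lamb2 and Itga11 stood at 1.29% to 4.28% of their mesenchymal-like level and Col1a1 at 0.451% to 1.65%. The part of mesenchymal RNA in these calls was not tested. The call of Itga11 ended with TMM scaling (log2 ratio 0.58). The calls at higher levels were Itga9, from 91.4 to 141 CPM in control callus, and in RA callus Itgax from 16.7 to 57.8, Itgal from 19.8 to 40.5 and Itga6 from 80.2 to 40.6 CPM. Itga9 also went from 96.7 to 140 CPM in RA callus and Itga6 from 83.6 to 60.6 CPM in control callus, under the limit.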

How the data were processed

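Per the labels and the study's methods, the authors digested callus, loaded 10000 cells per library and made UMI counts with Cell Ranger 7.0.1 on mm10. The deposited counts are raw UMI counts per gene and barcode, and the setting for intronic reads was not given in the sources used here. Deposited features and barcodes were matched by position, and no column of values was left unused. Cells with 4000 to 50000 UMIs, 2000 to 7000 features and at most 8% mitochondrial UMIs were kept, after the methods. Libraries were integrated with Seurat 5.3.0 (R 4.3.3; 30 dimensions, 15 principal components, resolution 0.5) on 1985 variable genes. A cluster was named with a marker score of at least 1, a lead of 0.35 over the next name and 3 detected markers, unless another class had more markers among its 10 leading genes. These limits were set after the clusters were seen, so the names are rebuilt. Doublets (634 cells, by Scrublet in scanpy 1.11.5) were kept and left out in an alternative.

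UMIs were summed per library and class with Python 3.11.15 (NumPy 2.4.6, SciPy 1.17.1, pandas 2.3.3). Ratios were taken on CPM with a pseudocount of 1. The calculation was tested on simulated data. With 1 library per group no test was made. All 38 members were counted, and 1 is not reported here by name. Levels were named for members with at least 100 UMIs, ratios for members past 1.5-fold (at most 10 by size), and in the other lists the 3 largest ratios. Genes given beside these, class-level values and the promoters shown were chosen with their values in view. The members, lists and markers were chosen with earlier results of these data known. Ccn3 stands for the older symbol Nov. Alternatives were doublets left out, scaling by TMM, 10 CPM as the pseudocount, a minimum of 10 UMIs per gene, a looser cell filter, no integration, classes weighted equally, CPM averaged over cells and, added after seeing the data, the mesenchymal-like sum without the osteochondral progenitor-like class. The looser filter took cells with at least 1000 UMIs and 500 features and at most 15% mitochondrial UMIs. It had no upper limit on UMIs or features, so very deep barcodes came in as well as shallow ones. The 6138 cells it added were put in the class with the nearest mean profile. The same rule returned 82.6% of the kept cells to their own cluster.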

Additional observations from a re-analysis of the deposited data

Results flagged for a closer look

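For 6 pairs of values, RA callus was past 1.5-fold below control callus at 4 dpf and past 1.5-fold above it at 7 dpf. They were sought in the lineages and in each cell class of at least 50 cells, and the share of all genes with such opposite calls was not counted. Each value is 1 library against 1 library, and none of these differences between time points was tested. In Arg1 macrophage-like cells the log2 ratio of Itgax was -1.36 at 4 dpf and 1.12 at 7 dpf, and that of Itgal was -0.61 and 0.98. The sums of the Arg1 macrophage markers differ between these libraries as given above. The log2 ratio of Itga2b was -0.65 and 0.73 in mesenchymal-like cells, and -0.59 and 0.90 in committed mesenchymal progenitor-like cells, which are part of that sum. In the sum the first of these ended as a call with the looser cell filter and both with classes weighted equally. In tenocyte precursor-like cells the log2 ratio of Itga2 was -0.92 and 0.79. In T and natural killer-like lymphocytes that of Lamc1 was -0.86 and 0.65, on 31 UMIs in RA and 30 in control callus at 4 dpf. The Arg1 macrophage markers in these lymphocytes had a summed level of 155 CPM in RA and 2353 in control callus at 4 dpf and of 108 and 413 CPM at 7 dpf, and their part in the result was not tested.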

How the results depend on the processing

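With a pseudocount of 10 CPM, the number of members past 1.5-fold between RA and control callus went from 5 to 1 at 4 dpf and from 6 to 2 at 7 dpf in mesenchymal-like cells, from 1 to 0 at 4 dpf in endothelial-like cells, and from 2 to 1 at 4 dpf and from 1 to 0 at 7 dpf in macrophage-like cells. Between time points it went from 6 to 3 in control and 5 to 3 in RA mesenchymal-like cells, from 4 to 0 and 3 to 0 in endothelial-like cells, and from 5 to 0 and 6 to 3 in macrophage-like cells. A larger pseudocount shrinks the ratios of low genes by construction. With cell classes weighted equally the counts were 2 at 4 dpf and 3 at 7 dpf in mesenchymal-like cells, 2 and 3 in endothelial-like cells, and 2 at 7 dpf in macrophage-like cells. Without integration 3 members were past the limit in mesenchymal-like cells at 4 dpf. There the looser cell filter gave 7, 6 higher and 1 lower in place of 2 and 3, with 3 shared. In endothelial-like cells at 4 dpf 3 were past it with doublets left out, none of them the member reported, and 3 with the looser cell filter, 1 of them shared. In macrophage-like cells at 7 dpf 2 were past it with TMM scaling and 2 with genes of at least 10 UMIs. Where no construction is named, the cause was not tested. Without the osteochondral progenitor-like class, an alternative chosen after seeing the data, the mesenchymal-like counts were 5 and 5. The highest class stayed the same for 38 of 38 members with doublets left out, 33 with the looser filter, 28 without integration and 35 with CPM averaged over cells. No paired analysis was possible because each group is 1 library. With 1 pool per group, depth narrows the counting intervals and not the unknown spread between animals.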
